A study of Homo sapiens with 12 samples.

Results

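MT-TY and MT-TC encode the mitochondrial tRNAs for tyrosine and cysteine (mt-tRNATyr and mt-tRNACys), and they are the pair of mt-tRNA genes examined here because they overlap on the genome. They were chosen by name, as 2 of the 22 human mt-tRNAs with MPAT-Seq tables and 2 of the 35 mitochondrial genes with RNA-seq counts. All samples came from Flp-In T-REx HEK293T cells, a line of human embryonic kidney origin, either with intact PDE12 (PDE12+/+) or with both alleles of PDE12 disrupted by zinc-finger nucleases (PDE12-/-). PDE12-/- was 1 single-cell clone, so genotype and clone cannot be told apart. MPAT-Seq, in which a linker is ligated to the 3′ end of RNA and the end of 1 gene is amplified with a gene-specific primer and sequenced, covered 6 conditions with a single library each. These were PDE12+/+, PDE12-/-, PDE12-/- expressing wild-type PDE12, PDE12-/- expressing the catalytic mutant E351A, and each genotype overexpressing mtPAP, the mitochondrial poly(A) polymerase; every transgene was induced with doxycycline. RNA-seq of isolated mitochondria was done on 3 PDE12+/+ and 3 PDE12-/- samples without a transgene.

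The mitochondrial genome is transcribed as long precursors, and tRNAs lying between other genes are cut out by RNase P at their 5′ ends and by RNase Z (ELAC2) at their 3′ ends. CCA, the 3′ terminal sequence that carries the amino acid, is then added by a nucleotidyltransferase after the discriminator base, which is the last base the gene encodes. PDE12 is a 3′ exonuclease that prefers adenines, and mtPAP adds adenines to the 3′ ends of mitochondrial RNA. Where a pair of tRNA genes shares a base, a single precursor cannot yield both tRNAs complete by cutting alone, and the upstream tRNA has been reported to be repaired at its 3′ end.

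MT-TY lies at 5826 to 5891 and MT-TC at 5761 to 5826 of the mitochondrial genome of GRCh38 (16569 nt), both on the − strand and each 66 nt long. The annotation gives each as a single-exon tRNA gene. MT-TY is transcribed first, and 12 bases separate it from MT-CO1 on the other strand. The overlap is the 1 base at 5826, which is the last base of MT-TY, its discriminator base, and the first base of MT-TC. Beyond the 3′ end of MT-TC, 31 bases lie before MT-TN, in the region of the origin of light-strand replication. Both genes are shown because every measurement below concerns their last bases, with the shared base and the discriminator bases in capitals.
MT-TY, chrM:5826-5891 (−): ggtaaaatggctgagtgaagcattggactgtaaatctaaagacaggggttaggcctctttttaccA
MT-TC, chrM:5761-5826 (−): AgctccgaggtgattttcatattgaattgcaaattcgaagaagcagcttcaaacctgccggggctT
The junction of the genes shows what an uncut precursor would read after MT-TY, and the stretch around the end of MT-TC shows the same for MT-TC. The capital marks the discriminator base in each.
Junction, chrM:5807-5845 (−): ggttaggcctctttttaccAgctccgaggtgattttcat
3′ end of MT-TC, chrM:5741-5780 (−): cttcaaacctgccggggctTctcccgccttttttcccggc
The primers of the MPAT-Seq reactions, shown because they set which molecules were read, were read from the study's oligo list and matched bases 1 to 26 of MT-TY and bases 1 to 24 of MT-TC.
Primer for MT-TY: ggtaaaatggctgagtgaagcattgg
Primer for MT-TC: agctccgaggtgattttcatattg
The primer for MT-TC therefore starts on the shared base, and the primer for MT-TY lies wholly upstream of it. Of the 22 mt-tRNA genes, 16 end in A, 4 in G, 1 in C (MT-TH) and 1 in T, which is MT-TC.

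In MPAT-Seq tables, position 0 is the discriminator base, +1 to +3 are the bases of CCA and +4 is the first base of an extension. Each table gives the number of reads that reach a position and how many of them carry each base there, so combinations of bases within a read are not known. Reads at +3 summed over the 22 mt-tRNAs to between 264522 and 758684 per library. MT-TC supplied 5.45% to 18.8% of these, and MT-TY 0.0204% to 0.259%, so values for MT-TY rest on 54 to 1439 reads and those for MT-TC on 17104 to 91263. Intervals are 95% Wilson intervals for shares and Newcombe intervals for differences; the reads carried no molecular identifiers, so neither kind reflects more than counting error. No difference between MPAT-Seq libraries has a replicate check or a test, because each condition has 1 library. The labels of the mtPAP libraries give the opposite genotype from the names of their tables; genotypes here follow the tables. For MT-TY, 3 of the 6 tables, those with E351A and both with mtPAP, start 1 base before the discriminator base, and they were aligned by their own expected bases.

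The shared base of MT-TY was read as adenine, the base of the genome, in most reads of every library, and the exception with the largest share was cytosine in PDE12-/-. In PDE12+/+, 116 of 1664 reads had cytosine there (6.97%, interval 5.84 to 8.30). In PDE12-/-, 188 of 543 reads did (34.6%, 30.7 to 38.7), a difference of 27.7 percentage points (23.6 to 31.9), which ranked 1 of the 22 mt-tRNAs. Adenine made up the rest but for 2 reads in PDE12+/+ and 4 in PDE12-/-. Cytosine was less frequent in each of the other libraries. It was in 7 of 509 reads with wild-type PDE12 (1.38%, 0.668 to 2.81), in 124 of 1538 with E351A (8.06%, 6.80 to 9.53) and in 15 of 306 in PDE12-/- with mtPAP (4.90%, 2.99 to 7.93). PDE12+/+ with mtPAP had cytosine in 0 of 85 reads, which allows a share of up to 3.53%. PDE12-/- therefore stood apart from the other 5 libraries, E351A included, although E351A was expressed in the same clone. In at least 49 of the 188 reads with cytosine in PDE12-/-, the read reached +2 without adenine there. The base before the shared base is also a cytosine in the genome, and the tables do not tell a replaced base from a missing one.

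**Figure D1:**
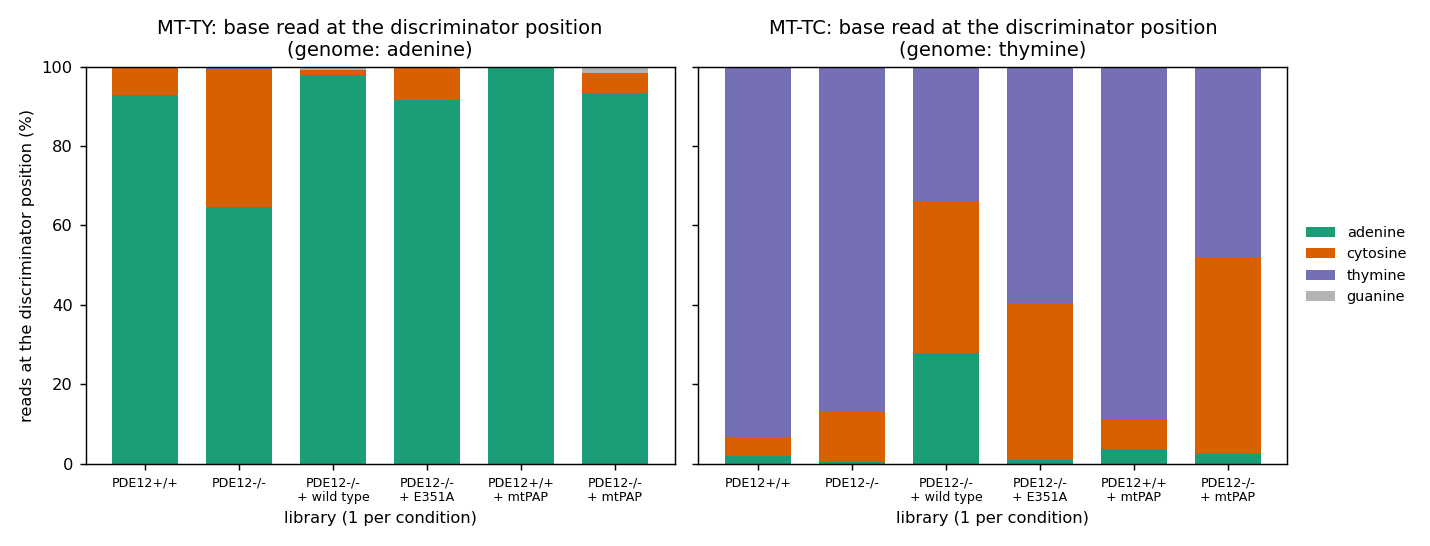
Base read at the discriminator position of MT-TY (left) and MT-TC (right), as a percentage of the reads at that position, in the 6 MPAT-Seq libraries; each bar is 1 library and its colours are the 4 bases. Cytosine in MT-TY reached 34.6% in PDE12-/- and was at or under 8.06% elsewhere, whereas in MT-TC it was 38.3% to 49.8% in 3 of the 4 libraries of PDE12-/- cells.

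In MT-TC the discriminator position, thymine in the genome, gave another order of libraries. Thymine was read in 93.1% of 70141 reads in PDE12+/+, in 88.7% of 46504 in PDE12+/+ with mtPAP and in 87.0% of 76545 in PDE12-/-. It was in 59.4% of 92497 reads with E351A, 47.8% of 63453 in PDE12-/- with mtPAP and 33.7% of 43005 with wild-type PDE12. Cytosine accounted for most of the remainder. Cytosine was in 4.85% of reads in PDE12+/+ (4.70 to 5.01), 12.6% in PDE12-/- (12.3 to 12.8), 39.5% with E351A (39.2 to 39.8) and 38.3% with wild-type PDE12 (37.8 to 38.8). With mtPAP it was in 7.53% of reads of PDE12+/+ (7.30 to 7.78) and 49.8% of PDE12-/- (49.4 to 50.2). The library with wild-type PDE12 also had adenine in 11999 reads (27.9%, 27.5 to 28.3), against 0.332% to 3.67% in the other 5 libraries. A base other than that of the genome was thus in 66.3% of its reads, which ranked 1 of 22, and the highest of the other 20 mt-tRNAs apart from MT-TY and MT-TC had 22.8%. Compared with PDE12-/- itself, cytosine was less frequent in MT-TY and more frequent in MT-TC in each of the 3 libraries in which wild-type PDE12, E351A or mtPAP was expressed in PDE12-/- cells.

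The bases of CCA were also not read as such in all ends, and adenine stood at +1 or +2 in both tRNAs. In MT-TY, adenine was at +1 in 144 of 1207 reads (11.9%, 10.2 to 13.9) and at +2 in 183 of 1164 (15.7%, 13.7 to 17.9) in PDE12+/+. In PDE12-/-, these were 12 of 449 (2.67%, 1.54 to 4.61) and 40 of 444 (9.01%, 6.69 to 12.0), differences of −9.26 points (−11.5 to −6.67) and −6.71 points (−9.91 to −3.10). With wild-type PDE12, adenine was at +1 in 199 of 421 reads (47.3%, 42.5 to 52.0) and at +2 in 195 of 391 (49.9%, 44.9 to 54.8). Nearly equal numbers of MT-TY ends thus read cytosine and adenine in that library, and both shares ranked 2 of 22 after MT-TS2. Against PDE12-/-, the share at +2 was 5.54-fold higher, beside a background of 50% of the 22 mt-tRNAs at least 2-fold higher. With E351A, the shares were 9.27% (7.91 to 10.8) and 11.4% (9.86 to 13.1). In the mtPAP libraries, adenine at +2 was in 2 of 54 reads in PDE12+/+ and in 13 of 284 in PDE12-/- (4.58%, 2.69 to 7.67).

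MT-TC had adenine at +2 without adenine at +1. At +1, adenine was in 0.240% to 1.56% of reads and cytosine in 98.3% to 99.7%. At +2, adenine was in 6.70% of reads in PDE12+/+ (6.51 to 6.89) and 10.8% in PDE12-/- (10.6 to 11.1), a difference of 4.14 points (3.86 to 4.43) that ranked 1 of 22. Over the 22 mt-tRNAs, 0 had a share at least 2-fold higher in PDE12-/-, a background of 0%, and MT-TC was 1.62-fold higher. The share at +2 was 38.3% with E351A (38.0 to 38.7) and 31.2% with wild-type PDE12 (30.6 to 31.7). With mtPAP it was 9.04% for PDE12+/+ (8.78 to 9.30) and 48.8% for PDE12-/- (48.4 to 49.2). Set against PDE12-/-, the share at +2 in MT-TC was 3.54-fold higher with E351A and 4.50-fold higher with mtPAP, where the background of at least 2-fold higher shares was 36.4% and 31.8%. Cytosine at the discriminator position and adenine at +2 had similar shares in MT-TC in each library, within 1.84 points except with wild-type PDE12, where they were 7.15 points apart. An end that reads cytosine at 0, cytosine at +1 and adenine at +2 is CCA placed 1 base early, but the tables count each position on its own and do not show how often the 3 bases occurred together.

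**Figure D2:**
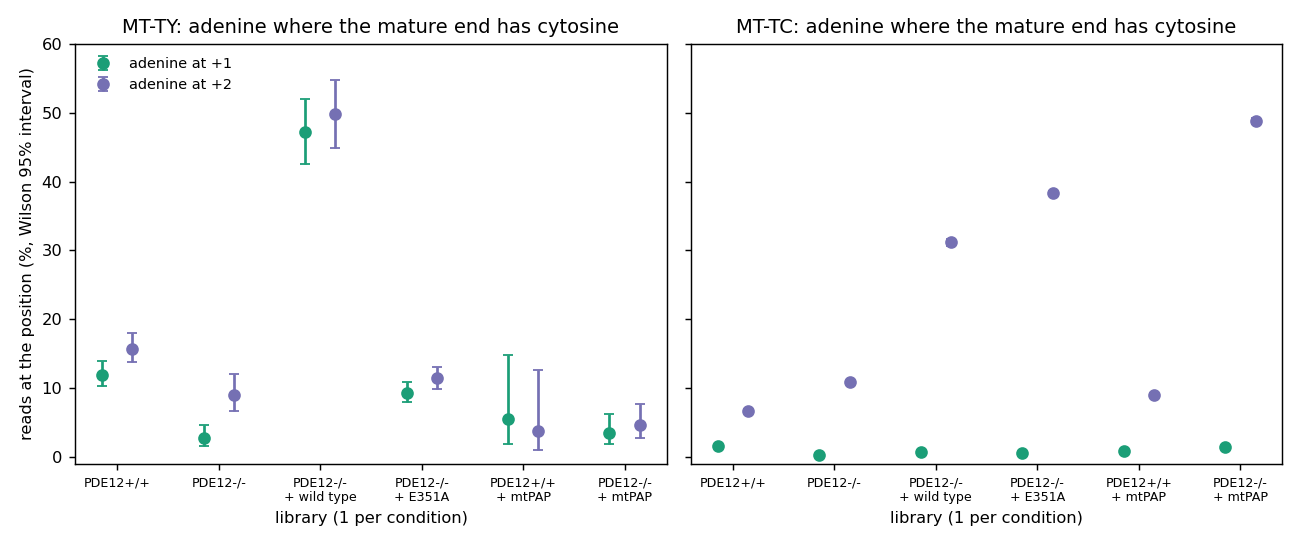
Adenine at +1 and +2, the positions where a mature end has the cytosines of CCA, as a percentage of the reads at that position in the 6 MPAT-Seq libraries, with Wilson 95% intervals. MT-TY had both adenines at 47.3% and 49.9% with wild-type PDE12, while MT-TC had adenine at +2 at up to 48.8% with no more than 1.56% at +1.

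Position +3 was adenine in nearly all MT-TY ends, and in fewer MT-TC ends in PDE12-/-, with E351A and in PDE12-/- with mtPAP. In PDE12+/+ it was 99.2% for MT-TY and 99.6% for MT-TC. MT-TY had 97.4% to 100% adenine there in the 6 libraries. MT-TC had 98.7% to 99.6% in 3 libraries, 95.9% in PDE12-/-, 88.3% in PDE12-/- with mtPAP and 86.5% with E351A, and the last 2 values ranked 22 of 22. The other base was cytosine, in 3025 of 75267 reads in PDE12-/- (4.02%, 3.88 to 4.16), 12169 of 91263 with E351A (13.3%, 13.1 to 13.6) and 6994 of 60499 in PDE12-/- with mtPAP (11.6%, 11.3 to 11.8). These were also the 3 libraries with the highest percentage of extended MT-TC ends, described below.

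Bases of the precursor were rare at +1 of MT-TY and +2 of MT-TC among all recorded reads. After MT-TY the precursor reads G, and guanine was at +1 in at most 2 reads of any library. After MT-TC the precursor reads CT, so cytosine at +1 tells nothing, and thymine at +2 was in 0.0341% to 0.183% of reads. Among the reads of MT-TC, the base an uncut end would carry at +2 thus stayed at or under 0.183%. For guanine at +1 of MT-TY the depth sets a looser limit, up to 5.45% in PDE12+/+ with mtPAP, where 0 of 55 reads had guanine. Whether longer uncut ends would be recorded was not tested, so these shares set no limit on uncut precursor.

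A part of the MT-TY ends stopped before +3. Of reads at the discriminator base, 541 of 1664 did not reach +3 in PDE12+/+ (32.5%, 30.3 to 34.8) and 110 of 543 did not in PDE12-/- (20.3%, 17.1 to 23.8), a difference of −12.3 points (−16.2 to −8.04). With wild-type PDE12 the share was 28.7% (24.9 to 32.8). In these 3 libraries the largest loss was at the first step, where reads ended on the shared base itself. Such ends made up 27.5% of reads in PDE12+/+ (25.4 to 29.7), which ranked 1 of 22 and lay above the 7.39% of the highest of the other 20, and 17.3% in both PDE12-/- (14.4 to 20.7) and PDE12-/- with wild-type PDE12 (14.3 to 20.8).

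In the 3 tables of MT-TY that start a base earlier, the largest loss lay before the shared base instead. Of reads at gene base 65, 533 of 2071 ended there with E351A (25.7%, 23.9 to 27.7). With mtPAP, 67 of 152 did for PDE12+/+ (44.1%, 36.4 to 52.0) and 49 of 355 for PDE12-/- (13.8%, 10.6 to 17.8). Cytosine, the base of the genome at 65, was read in 94.5% to 98.9% of these. Ends without the discriminator base were therefore read in 3 libraries, and the other 3 tables hold no row that could show them. Ends on the shared base were still read in these tables, in 30 of 85 reads in PDE12+/+ with mtPAP (35.3%, 26.0 to 45.9) and 18 of 306 in PDE12-/- with mtPAP (5.88%, 3.75 to 9.11), each ranking 1 of 22, and in 39 of 1538 with E351A (2.54%, 1.86 to 3.45). The place of the largest loss moved with the first row of the table, and the part of table layout in it was not tested. Of reads at the shared base, those not reaching +3 were 6.44% with E351A (5.32 to 7.78), and with mtPAP 36.5% for PDE12+/+ (27.0 to 47.1) and 15.0% for PDE12-/- (11.5 to 19.5).

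Ends short of +3 were less frequent for MT-TC than for MT-TY in 5 of the 6 libraries, and more frequent with wild-type PDE12. Reads that did not reach +3 were 6.54% in PDE12+/+ (6.36 to 6.73), 1.67% in PDE12-/- (1.58 to 1.76) and 1.33% with E351A. With mtPAP they were 8.38% for PDE12+/+ and 4.66% for PDE12-/-. The share in PDE12-/- was 0.255-fold that of PDE12+/+, beside a background of 50% at least 2-fold lower. With wild-type PDE12, 25901 of 43005 did not (60.2%, 59.8 to 60.7), 36.1-fold more than in PDE12-/- and the largest difference among the 22 mt-tRNAs at 58.6 points (58.1 to 59.0). Shares at least 2-fold higher than in PDE12-/- were general in that library, with a background of 86.4%. MT-TY, at 1.42-fold, was not among them. The MT-TC ends short of +3 stopped at all 3 steps, in 20.4% of reads at the discriminator base, 12.6% of reads at +1 and 42.8% of reads at +2. With the inactive E351A the corresponding shares were 0.0876%, 0.0335% and 1.21%. CCA placed 1 base early would end at +2 and be counted as short of +3. With wild-type PDE12, 9319 MT-TC reads had adenine at +2 and 12806 ended there. In PDE12+/+ these were 4656 and 3970. How many reads did both is not known, so not all of these ends are shown to lack CCA.

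**Figure D3:**
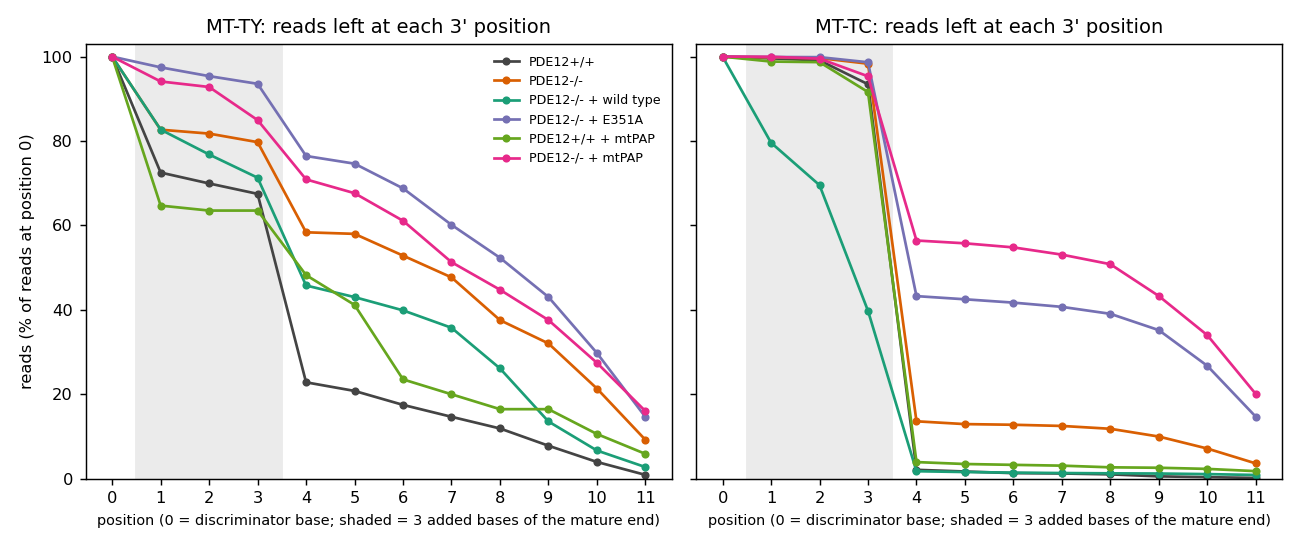
Reads left at each position, as a percentage of the reads at the discriminator base (position 0), for MT-TY (left) and MT-TC (right) in the 6 MPAT-Seq libraries; the shaded positions are those of CCA. MT-TY lost from 2.54% (E351A) to 35.3% (PDE12+/+ with mtPAP) of reads at the first step and kept many beyond +4. MT-TC lost 1.33% to 8.38% before +3 except with wild-type PDE12, where 60.2% of reads ended before +3.

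Ends extended beyond CCA were a large share of MT-TY in all libraries. Percentage extended, the reads at +4 as a percentage of those at +3, was 33.8% in PDE12+/+ (380 of 1123, 31.1 to 36.7) and 73.2% in PDE12-/- (317 of 433, 68.8 to 77.2), higher by 39.4 points (34.2 to 44.2). It was 64.2% with wild-type PDE12 (233 of 363, 59.1 to 68.9), and 81.7% with E351A (1176 of 1439, 79.6 to 83.6). With mtPAP it was 75.9% for PDE12+/+ (41 of 54, 63.1 to 85.4) and 83.5% for PDE12-/- (217 of 260, 78.5 to 87.5). MT-TY ranked 3 or 4 of 22 in 4 of the libraries. In PDE12-/- with mtPAP it ranked 13, because the median of the other 20 was 89.6%, and with E351A it ranked 6.

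MT-TC was extended far less, and over a wider relative range. Its percentage extended was 2.25% in PDE12+/+ (1473 of 65551, 2.14 to 2.36), 13.8% in PDE12-/- (10408 of 75267, 13.6 to 14.1) and 4.44% with wild-type PDE12 (760 of 17104, 4.14 to 4.76). It was 43.8% with E351A (40012 of 91263, 43.5 to 44.2). With mtPAP it was 4.29% for PDE12+/+ (1829 of 42607, 4.10 to 4.49) and 59.2% for PDE12-/- (35809 of 60499, 58.8 to 59.6). MT-TC ranked between 14 and 21 of 22, and no library placed it above MT-TY.

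Loss of PDE12 went with a higher percentage extended in both genes, 2.16-fold for MT-TY and 6.15-fold for MT-TC, beside a background of 45.5% of the 22 mt-tRNAs at least 2-fold higher. With wild-type PDE12 in PDE12-/-, MT-TC differed by −9.38 points (−9.77 to −8.98), and its 0.321-fold level was among the background of 77.3% at least 2-fold lower. MT-TY differed by −9.02 points (−15.4 to −2.57), 0.877-fold, and stayed 30.3 points (24.6 to 35.8) above PDE12+/+. These MT-TY values count all reads at +3, although adenine stood at +2 in 49.9% of MT-TY reads with wild-type PDE12. Counting only reads with adenine at +4 turned that difference between wild-type PDE12 and PDE12-/- to 2.67 points in the other direction (−4.10 to 9.35). With E351A, MT-TC was 3.17-fold and MT-TY 1.12-fold that of PDE12-/-, where the background at least 2-fold higher was 50%.

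Overexpressed mtPAP was followed by unlike values in the pair. In PDE12+/+, MT-TY was higher by 42.1 points (28.9 to 51.9) and 2.24-fold, and MT-TC by 2.05 points (1.82 to 2.27) and 1.91-fold, beside a background of 45.5%. In PDE12-/-, MT-TY was higher by 10.3 points (3.88 to 16.2) and 1.14-fold, and MT-TC by 45.4 points (44.9 to 45.8) and 4.28-fold, beside a background of 59.1%. Between the mtPAP libraries, PDE12-/- exceeded PDE12+/+ by 54.9 points and 13.8-fold for MT-TC (54.5 to 55.3 points), beside a background of 63.6%, and by 7.54 for MT-TY, with an interval that spans 0 (−3.14 to 21.0). Taking the genotypes of these libraries from their labels gave a difference of −9.54 points for MT-TC between PDE12-/- with mtPAP and PDE12-/-, and of 56.9 points between PDE12+/+ with mtPAP and PDE12+/+. For MT-TY in PDE12-/-, it gave 2.72 points with an interval that spans 0 (−10.8 to 13.1). The 10.3 points of MT-TY also became 21.7 with only adenine at +4 and 18.3 with positions as printed. The 42.1 points of MT-TY in PDE12+/+ became 25.4 relative to all ends that reached the discriminator base and 66.2 with positions as printed.

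**Figure D4:**
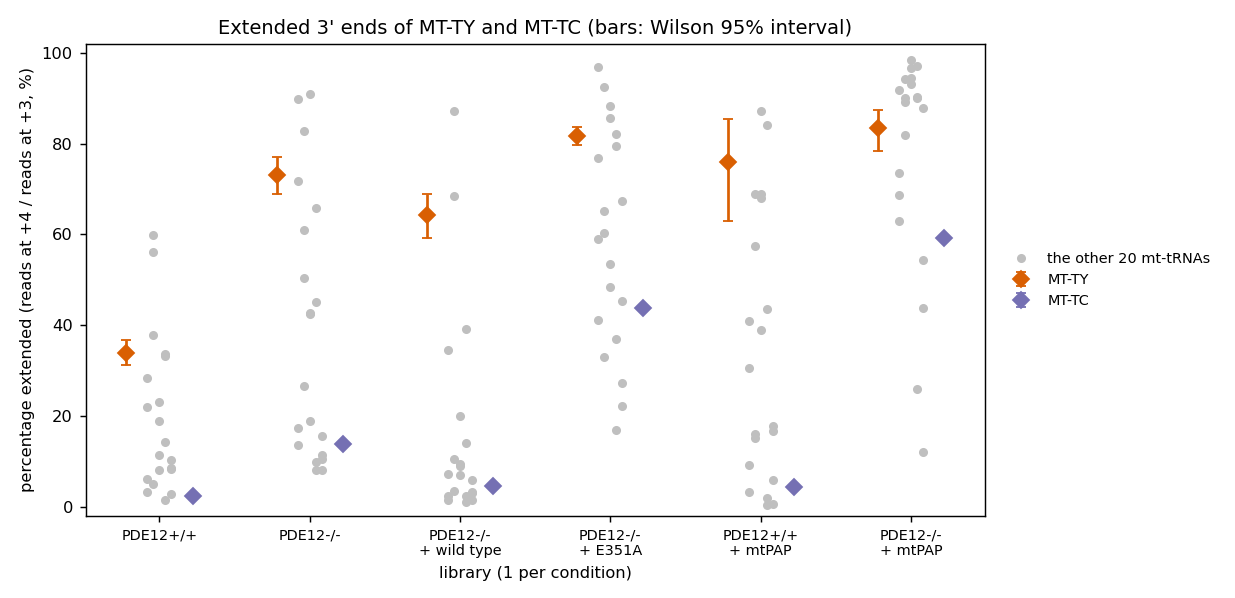
Percentage extended (reads at +4 divided by reads at +3) in the 6 MPAT-Seq libraries for MT-TY, MT-TC and the other 20 mt-tRNAs, with Wilson 95% intervals for the pair. MT-TY lay above MT-TC in every library, from 83.5% against 59.2% in PDE12-/- with mtPAP to 75.9% against 4.29% in PDE12+/+ with mtPAP.

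Ends of MT-TC with adenine at +2 bear on its percentage extended, since CCA placed early would make an adenine at +3 an extension. At least 9.63% and at most 11.0% of the MT-TC reads at +3 in PDE12-/- had adenine at +2. The limits were 37.6% and 38.8% with E351A and 46.6% and 51.0% in PDE12-/- with mtPAP. Among reads without adenine at +2, the percentage extended of MT-TC could therefore lie between 3.19% and 15.5% in PDE12-/-. The limits were 0% and 2.42% in PDE12+/+ and 16.8% and 100% in PDE12-/- with mtPAP, and neither range overlapped that of PDE12-/-. They were 8.21% and 71.7% with E351A and 0% and 9.76% with wild-type PDE12, which both overlapped it. In PDE12+/+ with mtPAP they were 0% and 4.76%, which overlapped those of PDE12+/+. For MT-TY these limits were 70.5% and 80.7% in PDE12-/- and 21.0% and 40.4% in PDE12+/+, which did not overlap. With wild-type PDE12, between 46.0% and 53.7% of the MT-TY reads at +3 had adenine at +2. The limits among its other reads were 22.6% and 100%, which overlap those of PDE12+/+ and of PDE12-/-.

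Extensions were made of adenine for the most part. Over all positions beyond CCA, adenine was 96.0% to 99.6% of bases in MT-TY and 93.2% to 99.3% in MT-TC, but 79.1% (78.0 to 80.1) in MT-TC of PDE12+/+, which ranked 21 of 22. At +4, cytosine was 16.7% of MT-TY bases in PDE12-/- (53 of 317, 13.02 to 21.2) against 4.21% in PDE12+/+ (16 of 380, 2.61 to 6.73). PDE12+/+ with mtPAP had cytosine at +4 in 4 of 41 reads (9.76%, 3.86 to 22.5), an interval that holds the value of PDE12-/-, and the other 3 libraries had 0.429% to 5.44%. In MT-TC, cytosine at +4 was 22.3% in PDE12+/+ (329 of 1473, 20.3 to 24.5) and 8.52% in PDE12-/- (887 of 10408, 8.00 to 9.07). From +4 to +8 the precursor of MT-TC reads CCGCC. In PDE12+/+, MT-TC had guanine in 143 of 926 reads at +6, and cytosine in 138 of 865 at +7 and 87 of 718 at +8. At +5, cytosine was in 114 of 1194 reads, and thymine, which is not the precursor base there, was in 120. Percentage extended counts any base at +4, and the part of precursor sequence in it was not tested.

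Recorded extensions were short, and few reads of either gene lay beyond +11. Whether longer ends were cut off at that position by read length or mapping was not tested. The medians below are those of recorded lengths. The median was 5 nt for MT-TY in PDE12+/+ and with wild-type PDE12, 6 nt in PDE12-/-, with E351A and in PDE12-/- with mtPAP, and 2 nt over 41 reads in PDE12+/+ with mtPAP. For MT-TC the median was 4 nt in PDE12+/+, 7.5 nt with wild-type PDE12 and 7 nt in each of the other libraries. The last position was +11, an extension of 8 nt, apart from 12 MT-TC reads at +12 with E351A. Of extended reads, 3.95% of MT-TY and 8.69% of MT-TC in PDE12+/+ reached +11, and 15.8% and 26.6% did in PDE12-/-. With wild-type PDE12, 380 of 760 extended MT-TC reads did (50.0%, 46.5 to 53.5), against 14 of 233 for MT-TY (6.01%, 3.61 to 9.83). Among extended reads of that library, those of MT-TC were thus more often at the last position than those of MT-TY.

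By percentage extended over the 6 libraries, MT-TY was most like MT-TL1, one of the leucine tRNAs, with a mean absolute difference of 9.23 points, then MT-TI (isoleucine, 12.1) and MT-TS2 (serine, 15.8). MT-TC was most like MT-TG (glycine, 5.75), MT-TM (methionine, 7.96) and MT-TW (tryptophan, 8.81). MT-TY and MT-TC differed from each other by 47.4 points on this measure, which put MT-TC at place 18 of 21 for likeness to MT-TY. The neighbours on the same precursor, MT-TA and MT-TN, were extended in 71.8% and 26.5% of ends in PDE12-/-. Next to them, the order of the cluster in PDE12-/- was MT-TY, MT-TA, MT-TN and MT-TC, and the intervals of MT-TY and MT-TA overlapped.

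In RNA-seq, fewer scaled counts of both genes were seen in PDE12-/- than in PDE12+/+, with differences that did not pass the test. The files give a forward and a reverse column per gene; the larger count lay in the forward column for 8 of the 9 genes on the − strand and 17 of the 26 on the + strand, so the columns are named here as given, and which of them is sense is not given in the sources used here. The forward column held 96.2% of the counts of MT-TY and 96.0% of those of MT-TC. Summed over samples, MT-TC ranked 1 and MT-TY 4 of the 22 mt-tRNAs by count. The paper used this RNA-seq for mt-mRNAs and their antisense transcripts. Whether the counts came from mature tRNAs or from precursors was not tested. Depth was low, with totals of 36338 to 104708 counts per sample over the 70 gene columns.

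Forward counts of MT-TY were 253, 397 and 500 in PDE12+/+ replicates 1, 2 and 3, and 251, 317 and 384 in PDE12-/-. As CPM, counts scaled to a common library size with TMM, these were 6378, 4877 and 6383 in PDE12+/+ and 2722, 4533 and 3873 in PDE12-/-. All 3 PDE12-/- samples lay below all 3 PDE12+/+ samples on this scale, in a table where 14.3% of the 70 columns had groups that did not overlap. As shares of the library totals, the genotypes overlapped. The mean was 5879 ± 868 (SD, n = 3) against 3709 ± 916, a log2 fold change of −0.66 ± 0.35 (SE, adjusted p = 0.562, edgeR quasi-likelihood test, Benjamini-Hochberg over 70 columns).

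Forward counts of MT-TC were 622, 929 and 1486 in PDE12+/+ and 644, 724 and 1161 in PDE12-/-. Scaled, these were 15681, 11413 and 18969 CPM in PDE12+/+ and 6984, 10352 and 11710 in PDE12-/-, so the highest PDE12-/- sample lay above the lowest PDE12+/+ sample. The log2 fold change of −0.67 ± 0.34 (SE) had an adjusted p of 0.562 by edgeR. Without PDE12+/+ replicate 3, the log2 fold changes were −0.29 for MT-TC and −0.41 for MT-TY. With the replicate number as a block, the values were −0.68 for MT-TY and −0.67 for MT-TC, with adjusted p of 0.122 and 0.104 by edgeR. Without the block, 0 of the 70 columns passed by edgeR, a background of 0%, while 5 had an unadjusted p under 0.05 and DESeq2 called 0. These CPM are relative to the other mitochondrial columns, so they measure neither RNA per cell nor the fraction of cells with these RNAs. With library totals in place of TMM, the forward log2 fold changes were −0.48 for MT-TC and −0.49 for MT-TY.

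**Figure D5:**
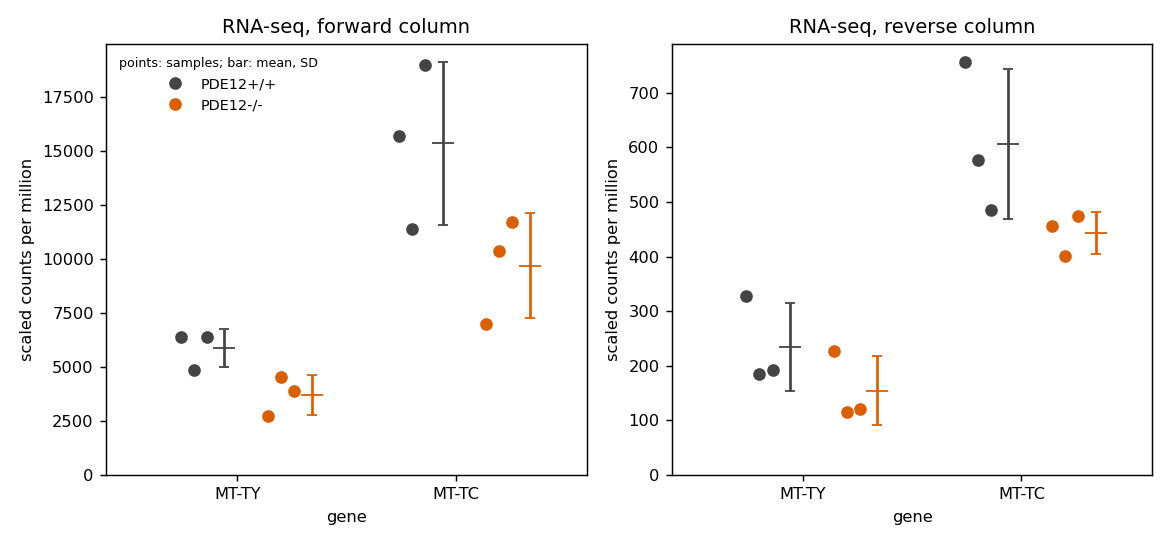
RNA-seq counts of MT-TY and MT-TC in the forward (left) and reverse (right) columns, in TMM-scaled CPM, for 3 PDE12+/+ and 3 PDE12-/- samples; points are samples and bars the mean with SD. Forward means were 5879 against 3709 for MT-TY and 15354 against 9682 for MT-TC, and neither difference passed the test.

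With the block, 4 columns passed by edgeR, all forward and named after their values were seen: MT-CO1, MT-CO2 and MT-TN were lower in PDE12-/- and MT-ND2 was higher. MT-TN, the asparagine tRNA next to MT-TC, had a log2 fold change of −0.86 without the block (adjusted p = 0.285 by edgeR) and −0.87 with it (adjusted p = 0.0222). MT-TA, the alanine tRNA, was at −0.70 forward (adjusted p = 0.562 by edgeR), close to MT-TY and MT-TC.

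Reverse counts were few, and neither gene passed the test. MT-TY had 13, 15 and 15 in PDE12+/+ and 21, 8 and 12 in PDE12-/-, and MT-TC had 30, 47 and 38 against 42, 28 and 47. Their log2 fold changes were −0.52 ± 0.49 and −0.42 ± 0.41 (SE), each with an adjusted p of 0.839 by edgeR. As CPM, MT-TC was between 485 and 756 in PDE12+/+ and between 400 and 474 in PDE12-/-, so its groups did not overlap, while those of MT-TY did. Groups did not overlap in 14.3% of the 70 columns. As shares of the library totals the MT-TC groups overlapped, with 0.0446% in PDE12+/+ replicate 3 and 0.0624% in PDE12-/- replicate 1.

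The proportion of the pair to each other, which needs no scaling, was nearly the same in both genotypes. MT-TC made up 71.0%, 70.3% and 74.7% of the summed counts of the pair in PDE12+/+ replicates 1, 2 and 3, and 71.6%, 69.8% and 75.3% in PDE12-/-. The means were 72.0% ± 2.38 and 72.2% ± 2.80 (SD, n = 3 each), a difference of 0.220 points (exact two-sided permutation test, p = 0.8, where 0.1 is the smallest value the design allows). The spread between replicates was larger than the difference between genotypes, and replicate 3 was the highest in each. Reads across the shared base can be counted for either gene, and the rule used for them is not given in the sources used here.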

How the data were processed

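The members and all gene lists were chosen with earlier results of these data known. For MPAT-Seq, the authors removed primers with cutadapt, mapped reads with Bowtie2 to a reference built on GRCh38 with uncalled positions added after each mt-tRNA, under raised gap penalties, and deposited whole-number counts of reads per position with the count of each base; in the PDE12-/- library 12 positions, all of MT-TQ, had base counts that did not sum to the total. For RNA-seq, the authors trimmed reads with Trim Galore, mapped them with Bowtie2 to GRCh38, removed mt-rRNA reads and parted strands with SAMtools, counted reads with Rsubread, and deposited raw counts of 35 genes in a forward and a reverse column. Versions of these tools are not given in the sources used here.

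Here, shares were computed from the deposited MPAT-Seq counts with 95% Wilson and Newcombe intervals (Python 3.11.15, SciPy 1.17.1), and 3 reads set the upper limit of a share of 0. mtPAP libraries were grouped by the genotype in the name of their table, and all others by label. Over the 22 mt-tRNAs, a share at least 2-fold higher or lower was called. Tables with an ambiguous name (MT-TS, and a repeated MT-TT) were assigned by length and last base, and cytosine counts of the MT-TQ table were taken as the remainder. Gene positions and sequences came from GRCh38 with the GENCODE annotation. The 70 RNA-seq columns were fitted with edgeR 4.0.16 (R 4.3.3; TMM, common dispersion, quasi-likelihood test, threshold 0.05 on the Benjamini-Hochberg adjusted p-value), after a test of the script on simulated data. The labels do not say whether the 3 samples per genotype were separate cultures, so p-values measure the spread between these samples, which may be technical. Deviations from the group means of samples with the same replicate number had correlations of 0.620, 0.257 and 0.358 over 37 columns with at least 10 counts in every sample. Of the pairs with different numbers, 1 had a correlation of 0.655 (PDE12+/+ replicate 3 with PDE12-/- replicate 2), so the pairing by number rests on a hint from the data, and a fit with the number as a block was run. The share of MT-TC in the pair was compared with an exact permutation test. Alternatives were DESeq2 1.42.0, other scaling, a count filter, leaving out each sample, other numerators and denominators of the percentage extended, MT-TY positions as printed and the mtPAP labels. Other mt-tRNAs are named only as neighbours in the gene cluster, as the 3 most like a member in percentage extended, or as the highest or lowest of 22. The transcript of PDE12, a nuclear gene, and protein data were not analysed here.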

Additional observations from a re-analysis of the deposited data

Results flagged for a closer look

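The difference between PDE12-/- and PDE12+/+ had opposite signs with endogenous and with overexpressed mtPAP for 2 shares; neither change of sign was tested, since each condition has 1 library. Adenine at +1 of MT-TC differed by −1.32 points in PDE12-/- against PDE12+/+ with endogenous mtPAP (interval −1.42 to −1.22) and by 0.697 points with overexpressed mtPAP (0.573 to 0.820). Adenine at +2 of MT-TY differed by −6.71 points with endogenous mtPAP (−9.91 to −3.10) and by 0.874 points with overexpressed mtPAP, where 54 and 284 reads reached +2 and the interval spans 0 (−8.16 to 4.97). Both sign changes depend on the genotypes given to the mtPAP libraries, which their labels reverse.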

How the results depend on the processing

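The 10 differences in percentage extended had 37 alternative values, of which 2 changed sign, 16 moved by more than counting error and 19 did neither; their causes were not tested. Counting only adenine at +4 gave MT-TY differences of 28.9 points for PDE12-/- against PDE12+/+, 2.67 for wild-type PDE12 against PDE12-/- (−9.02 with any base), 16.2 for E351A and 21.7 for mtPAP in PDE12-/-. For MT-TC it gave 11.0 for PDE12-/- against PDE12+/+, −8.83 for wild-type PDE12, 2.49 for mtPAP in PDE12+/+ and 45.9 for mtPAP in PDE12-/-. Dividing by reads at the discriminator base gave 18.1 for E351A and 25.4 for mtPAP in PDE12+/+ (MT-TY), and −11.8 for wild-type PDE12 and 42.8 for mtPAP in PDE12-/- (MT-TC). Positions of MT-TY as printed gave 24.9 for E351A, 66.2 for mtPAP in PDE12+/+ and 18.3 for mtPAP in PDE12-/-. By the labels of the mtPAP libraries, mtPAP in PDE12-/- gave 2.72 for MT-TY and −9.54 for MT-TC, and mtPAP in PDE12+/+ gave 56.9 for MT-TC.

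The count of RNA-seq columns past the threshold, 0, became 4 with the replicate number as a block and 2 with library totals without TMM (MT-ND2 and MT-ATP6 forward, named after their values were seen), which moved the median log2 fold change of the 70 columns from −0.02 to 0.20. It was 0 by DESeq2, with DESeq2's size factors, with the count filter and without any 1 sample. No member passed, and no log2 fold change of a member changed sign, under any alternative run, though without PDE12+/+ replicate 3 those forward were −0.29 (MT-TC) and −0.41 (MT-TY), against −0.67 and −0.66; MT-TY reverse could not be fitted under the count filter, having under 10 counts in 1 sample. The difference in the MT-TC share was 0.227 points from forward and 2.28 from reverse counts and ranged from −1.31 to 1.58 without 1 sample; the pairing of replicate numbers gave an exact sign-flip p of 0.5, where 0.25 is the smallest possible. Beyond the 4 columns above, the block changed the call of no result reported here. Depth limits MT-TY in PDE12+/+ with mtPAP, at 54 reads, and the reverse RNA-seq counts.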
